A study of Mus musculus with 36 samples.

Results

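AY036118 is a mouse long noncoding RNA gene on chromosome 17, and the DNA lesions described here are those listed within it and within the rest of the 100 kb window that holds it, from 39.8 to 39.9 Mb of GRCm38. The gene (RefSeq gene 101056014) spans chr17:39848112-39898385 on the minus strand, 50274 bp, and is 1 of 49943 genes counted, while the window is 1 of 26287 windows of 100 kb with at least 1 lesion. Gene and window were chosen on measured values, namely the SSB levels of bone marrow beside those of the other tissues, so the SSB levels by tissue are given as a description, with no test. In the 12 SSB libraries the window held 3864 of 5518789 listed positions, and in the 12 AP libraries it held 2715 of 8824020.

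All libraries came from 24-month-old male C57BL/6J mice. The groups were bone marrow with its red cells lysed, brain, heart, liver, PBMCs (peripheral blood mononuclear cells, separated on Ficoll) and motile sperm from the tail of the epididymis, with 2 animals per tissue. Whether different tissues came from the same animals is not stated. From each of the 12 tissue samples 1 library of single-strand breaks (SSBs, nicks in 1 strand of the double helix, mapped with SSiNGLe) and 1 of AP sites (sugars that have lost their base, mapped with SSiNGLe-AP) were made, and no treated or younger group enters any comparison below. Each library was made from a mixed tissue or cell preparation, so that a difference within a cell type and a difference in cell composition cannot be told apart. A position is a nucleotide and strand at which a library lists a lesion; SSB libraries held 225011 to 1041983 positions and AP libraries 460719 to 963258, and levels are therefore given as PPM, the positions of a region per 1e+06 positions listed in the library.

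Ribosomal RNA is transcribed by RNA polymerase I as a long precursor in which the 18S, 5.8S and 28S rRNAs are separated by transcribed spacers that are cut away. The genes lie in tandem arrays that are mostly absent from the assembled mouse chromosomes, and isolated pieces of the unit are annotated elsewhere in the assembly. Rn18s-rs5, which also carries the name Gm42418 and is annotated as a pseudogene related to 18S rRNA, is such a piece, and it is the only other gene of the window. It covers chr17:39846354-39848202, 1849 bp, and shares 91 bp with the far end of AY036118.

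The start of AY036118 lies at the other end of the gene, 49575 bp from the nearest dense run of lesions, and its promoter is shown because it contrasts with that run. The sequence below is from RefSeq (GRCm38.p6, chr17:39898336-39898635, minus strand, 300 bases from 250 before to 50 after the start). Capitals mark the 2 coordinates at which any library listed a lesion, on either strand.
AY036118 promoter: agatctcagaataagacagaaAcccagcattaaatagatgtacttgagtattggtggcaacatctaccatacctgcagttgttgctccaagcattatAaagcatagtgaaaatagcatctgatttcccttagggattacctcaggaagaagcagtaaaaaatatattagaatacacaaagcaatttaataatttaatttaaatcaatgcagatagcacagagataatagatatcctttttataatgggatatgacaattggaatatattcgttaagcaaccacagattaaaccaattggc
Both capitals mark SSB positions listed on the plus strand, so the listed nucleotide is the partner of the base printed. They lie at base 22 in heart replicate 1 and at base 98 in heart replicate 2, each with a count of 1. No AP library listed a position in these 300 bases, so the promoter contributed 2 of the 3864 SSB positions of the window.

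The lesions lay beside Rn18s-rs5 and not within it. The annotated rRNA-related gene itself held 0 SSB positions and 1 AP position, its last base, on the minus strand in AP bone marrow replicate 1. For counting error, 0 positions allow up to 3 over the 12 libraries. In the 1849 bp directly before its left edge there were 1793 SSB and 1179 AP positions, and in the 1849 bp from chr17:39848202-39850050 there were 511 and 337. The gene itself was thus nearly empty in both lists. How reads with several matches in the genome were treated is not given in the sources used here, so that an absence of lesions and a sequence at which none could be listed cannot be told apart.

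Nearly all positions fell in a pair of dense stretches, defined after the data were seen as runs of listed nucleotides with gaps under 100 bp that hold at least 100 nucleotides. The longer, chr17:39843164-39846352, was 3189 bp long and held 3290 SSB and 2301 AP positions. The shorter, chr17:39848202-39848811, was 610 bp long and held 511 and 337. Together they held between 95.9% and 99.2% of the window's positions in an SSB library and between 92.6% and 99.1% in an AP library. The interval between them, chr17:39846353-39848201, is 1849 bp long, the length of Rn18s-rs5, and is shifted by 1 nucleotide from its annotated edges.

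AY036118 carried lesions almost only in the 610 bp at its far end. The remaining 49574 bp of the gene, chr17:39848812-39898385, held 39 SSB positions over all 12 libraries, 1 to 6 per library, and 44 AP positions, 0 to 7 per library. The gene thus contributed 550 SSB and 381 AP positions, of which 511 and 337 lay in the shorter stretch, 91 bp of AY036118 lie under Rn18s-rs5, and a level computed over its whole length averages a short dense end with a long sparse body.

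At 1 kb resolution 5 steps each held at least 5% of the window's positions in both assays. The step chr17:39844001-39845000 was the fullest for SSBs, with 1009 positions (26.1% of the window), and chr17:39843001-39844000 the fullest for AP sites, with 763 (28.1%). The step chr17:39848001-39849000, the only one of the 5 that touches AY036118, held 511 SSB (13.2%) and 337 AP positions (12.4%). The other 95 steps held 63 SSB and 77 AP positions in all, at most 4 and 5 in a step.

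**Figure D1:**
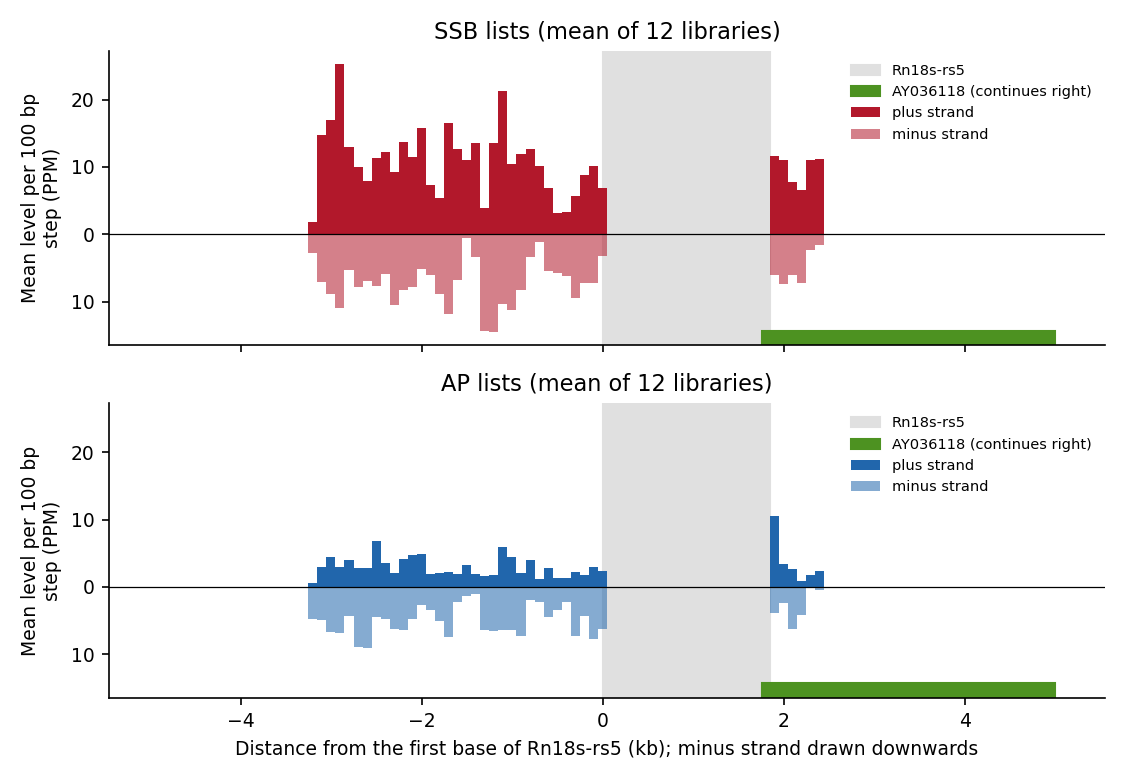
Mean level in PPM (vertical axis, 12 libraries) in 100 bp steps by distance from the first base of Rn18s-rs5 (horizontal axis, kb), SSBs above and AP sites below, with the plus strand drawn upwards and the minus strand downwards. Bars fill 3189 bp before the grey Rn18s-rs5 span and 610 bp after it, and the span itself is empty apart from steps that straddle its edges.

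The window held far more listed positions than its neighbours. Whether reads from rRNA copies absent from the assembly were listed here is not given in the sources used, and their part was not tested. Its left flank of 100 kb held 58 SSB positions over 12 libraries (2 to 12 per library) and 94 AP positions (3 to 13), and its right flank, which holds the gene Esp38, held 52 (1 to 9) and 60 (2 to 9). The log2 ratio of the window to the mean of its flanks was 5.91 ± 0.74 (SD, n = 12) for SSBs and is given without a test, since SSB levels chose the window. For AP sites it was 4.98 ± 0.60 and above 0 in 12 of 12 libraries (two-sided exact sign-flip permutation test, p = 0.000488, adjusted p = 0.00061 over 10 tests). A p of 0.000488 is the smallest that 12 libraries allow.

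For SSBs the window was the second densest of 26176 windows with an SSB position, in the mean and in each of the 12 libraries, at 19.1 times the median window. For AP sites it had rank 3 of 26212, between 2 and 4 in a library, at 8.48 times the median. The densest window in both assays was 3.1 to 3.2 Mb of chromosome 11, which holds Pisd-ps1 and Sfi1.

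Among tissues the SSB level of the window was highest in bone marrow. Its libraries held 1055 and 1174 PPM (exact Poisson 95% intervals 963 to 1154 and 1040 to 1320, which cover counting error only), a mean of 1114.5 ± 83.8 (SD, n = 2). Liver followed with 850 and 824 PPM (837 ± 18). Brain held 736 and 599 (668 ± 96.5) and heart 710 and 624 (667 ± 61.1). The lowest levels were those of sperm, with 456 and 506 (481 ± 35.3), and of PBMCs, with 484 and 386 (435 ± 69.7). Bone marrow lay above liver and liver above every library of the other tissues, whereas the ranges of brain and heart overlapped, as did those of sperm and PBMCs.

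The whole-gene level of AY036118 was expressed as LPKM, the number of positions per kb of gene and per 1e+06 positions of the library, that is PPM per kb. LPKM-SSB was 2.99 and 2.78 in bone marrow (2.89 ± 0.149), from 69 and 33 positions, and 2.32 and 2.41 in liver (2.37 ± 0.0658). It was 2.05 and 1.95 in heart, 1.64 and 1.71 in sperm and 1.82 and 1.52 in brain. PBMCs were lowest with 1.33 and 0.846 (1.09 ± 0.340), from 15 and 13 positions. Only sperm and brain overlapped among neighbours in this order, and the interval of the second PBMC library, 0.450 to 1.45, shows how little 13 positions fix the level.

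The parts of the window followed the same extremes. The longer stretch, before Rn18s-rs5, held 963 ± 88.4 PPM of SSBs (n = 2) in bone marrow and 377 ± 51.8 in PBMCs. The shorter stretch, at the end of AY036118, held 133 ± 14.9 and 49.1 ± 18.6. Within a library both stretches belong to the same list and share its depth. They hold nearly all the SSB positions on which gene and window were chosen, so their order of tissues is no separate support.

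**Figure D2:**
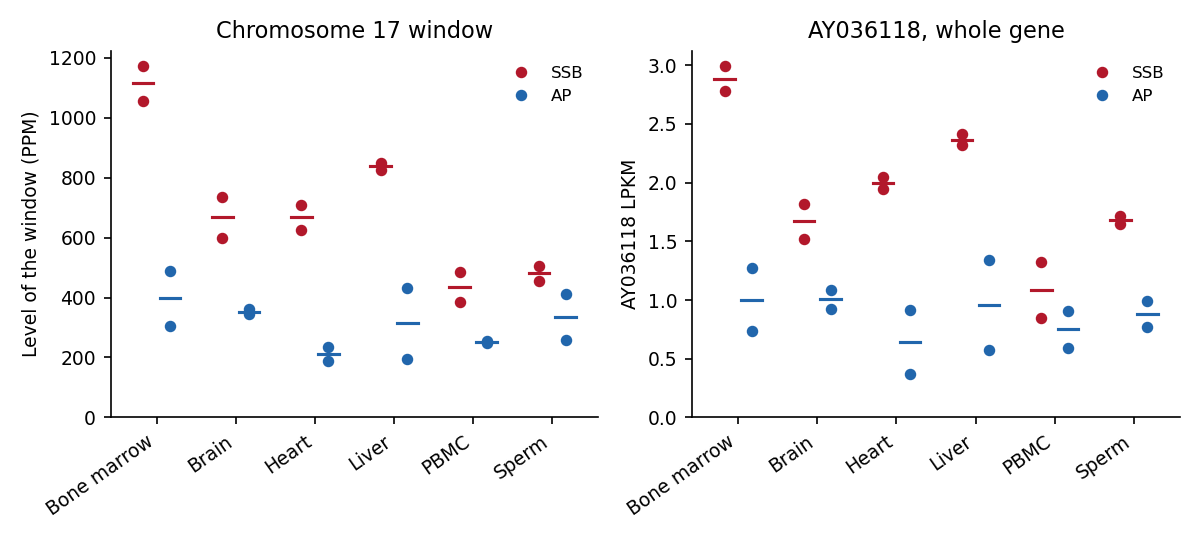
Level of the chromosome 17 window in PPM (left) and LPKM of AY036118 (right) by tissue, with a point for each library, a line for the mean of 2, SSBs in red and AP sites in blue. SSB points of bone marrow sit at 1055 and 1174 PPM, above all others, and the AP points of a tissue sit between 188 and 489.

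AP sites, which did not enter the choice of the gene, were lower and less ordered. In bone marrow the AP level of the window was 489 and 306 PPM (397 ± 130, n = 2), in brain 361 and 345, in sperm 411 and 259 and in liver 195 and 432. It was 256 and 249 in PBMCs and 236 and 188 in heart (212 ± 34.5). The ranges of neighbouring tissues overlapped except those of PBMCs and heart, and liver alone spanned most of the scale. LPKM-AP of AY036118 ran from 0.373 and 0.916 in heart to 1.09 and 0.921 in brain, with bone marrow at 1.27 and 0.736.

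Across the 6 tissues neither member passed the test for AP sites. The quasi-likelihood fit of edgeR to positions per gene gave AY036118 an adjusted p of 1.0 over 41374 genes, of which 0 were called (0%) and 1219 had an unadjusted p under 0.05. The window had the smallest unadjusted p of 26003 windows (3.44e-05), with an adjusted p of 0.604 (edgeR), and again 0 windows were called (0%), with 1090 at an unadjusted p under 0.05. DESeq2 called 0 genes and 0 windows, with 29 windows at an unadjusted p under 0.05. In DESeq2 the window itself had an unadjusted p of 0.344 and rank 1283. With lists thinned to equal depth its unadjusted p in edgeR was 0.0194, at rank 392. The adjusted p of the window in edgeR depended on single libraries: it was 1.26e-06 and 8.61e-08 without liver replicate 1 or 2, and 0.0334 and 0.00636 without sperm replicate 1 or 2, fits in which the lone library of a tissue is assumed to vary like the others. Library totals without TMM gave 0.0228, and sperm DNA had been isolated with another kit than that of the other tissues, whose part in this was not tested.

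The window and AY036118 were higher for SSBs than for AP sites from the same tissue samples. Per sample, the ratio of SSB to AP level in PPM in the window ran from 1.11 in sperm replicate 1 to 4.35 in liver replicate 1, with a median of 2.00, and was above 1 in 12 of 12 samples. For LPKM of AY036118 the ratio ran from 0.929 in PBMC replicate 2 to 5.22 in heart replicate 2, with a median of 2.23, and was above 1 in 11 of 12.

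In a fit with tissue as a covariate, AY036118 was 2.09-fold higher for SSBs (log2 1.07 ± 0.10 SE, edgeR adjusted p = 3.89e-20). Of 41210 genes tested, 419 were called (1.02%), 93 of them higher for SSBs (0.226%), and AY036118 had the second smallest p; 857 genes had a larger log2 ratio. The window was 2.21-fold higher (log2 1.14 ± 0.09 SE, edgeR adjusted p = 3.22e-35) among 25987 windows, of which 543 were called (2.09%), 343 of them higher for SSBs (1.32%), and it too had the second smallest p. At 10 kb, where 44 of 242468 windows were called (0.0181%), the window that holds the listed start coordinate of AY036118 had a log2 ratio of 0.93 (edgeR adjusted p = 5.8e-05). The choice rested on the SSB values of bone marrow and of the other tissues. The p-values of these fits, with or without bone marrow, are therefore not free of that choice. Without bone marrow the log2 ratios of AY036118 and the window were 0.97 and 1.05 (edgeR adjusted p = 1.5e-12 and 8.47e-27). With all lists thinned to equal depth they were 1.23 and 1.23 (edgeR adjusted p = 1.54e-10 and 9.38e-36), so the ratios were as large without the difference in depth. The assays also differ in chemistry, whose part in the ratio was not tested.

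The excess was shared by both sides of Rn18s-rs5. The longer stretch had a median ratio of SSB to AP level in PPM of 2.04 over the 12 samples (1.04 to 4.48) and the shorter one of 2.24 (0.827 to 5.82). AY036118 took up a like share of the window in either assay, namely 14.2% ± 2.07 of SSB and 14.2% ± 2.76 of AP positions (SD, n = 12), a difference of -0.049 percentage points that was above 0 in 5 of 12 samples (two-sided exact sign-flip permutation test, p = 0.964, adjusted p = 0.964). The sample differences ran from -7.33 to 6.01 points, with an SD of 3.90 points.

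**Figure D3:**
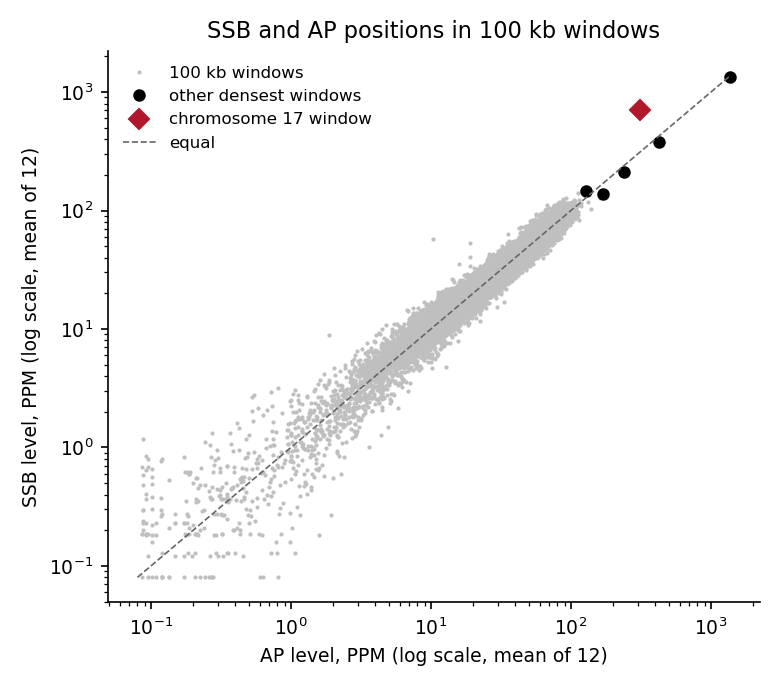
Mean SSB level in PPM (vertical, log scale) against mean AP level in PPM (horizontal, log scale) for 100 kb windows, each grey point a window, with the other densest windows in black and the chromosome 17 window as a red diamond. The diamond, at 700 PPM for SSBs and 311 PPM for AP sites, sits above the dashed line of equal levels, whereas the black points lie along it.

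No other very dense window showed this. The window 3.1 to 3.2 Mb of chromosome 11 held 1338 ± 107 PPM of SSBs and 1371 ± 135 PPM of AP sites (SD, n = 12), a log2 ratio of -0.03 ± 0.10 (SE, edgeR adjusted p = 0.929). The window 88.2 to 88.3 Mb of chromosome 1, with genes of the Ugt1a cluster, which encode glucuronidating enzymes, held 379 ± 46.5 and 423 ± 25.3 (log2 -0.17 ± 0.08, edgeR adjusted p = 0.351). The windows at 85.2 and 85.5 Mb of chromosome 1 and at 3.0 Mb of chromosome 17 had log2 ratios of -0.18, -0.29 and 0.17, none past the threshold. The difference between these windows and the one with AY036118 was not itself tested.

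The listed strand separated the assays. In SSB libraries 61.2% ± 3.96 (SD, n = 12) of the window's positions were on the plus strand, from 57.3% in sperm replicate 1 to 69.5% in PBMC replicate 2. In AP libraries it was 40.4% ± 6.11, from 29.3% in brain replicate 2 to 52.3% in heart replicate 1. All 12 SSB libraries lay above 50% and 11 of 12 AP libraries below it, and the groups did not overlap. The paired difference was 20.8 ± 6.40 percentage points, above 0 in 12 of 12 samples and between 8.58 and 32.2 points (two-sided exact sign-flip permutation test, p = 0.000488, adjusted p = 0.00061).

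Summed over the rest of the genome, strands were near balance in the same libraries, which does not show that each other window was. The plus strand held 50.4% ± 0.134 of the other SSB positions and 51.0% ± 0.0901 of the other AP positions. The window exceeded this by 10.8 ± 4.0 points for SSBs, in 12 of 12 libraries (exact p = 0.000488, adjusted p = 0.00061), and was 10.5 ± 6.08 points below it for AP sites, in 11 of 12 libraries (exact p = 0.000977, adjusted p = 0.00109). How the listed strand of each assay relates to the broken or baseless strand is not given in the sources used here, so plus and minus name the lists' own column.

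By tissue, the PBMC libraries had the highest plus-strand share for SSBs, at 68.8% and 69.5%, and sperm the lowest, at 57.3% and 57.4%. For AP sites heart was highest, at 52.3% and 46.2%, and brain lowest, at 39.7% and 29.3%. Within the longer stretch the SSB share lay above 50% in 12 of 12 libraries (median 59.3%) and the AP share in 0 of 12 (median 38.0%). Within the shorter one the medians were 66.5% and 63.0%, so that the assays parted in strand mainly before Rn18s-rs5. The step chr17:39846001-39847000, directly before it, had 53.8% of SSB and 26.9% of AP positions on the plus strand.

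**Figure D4:**
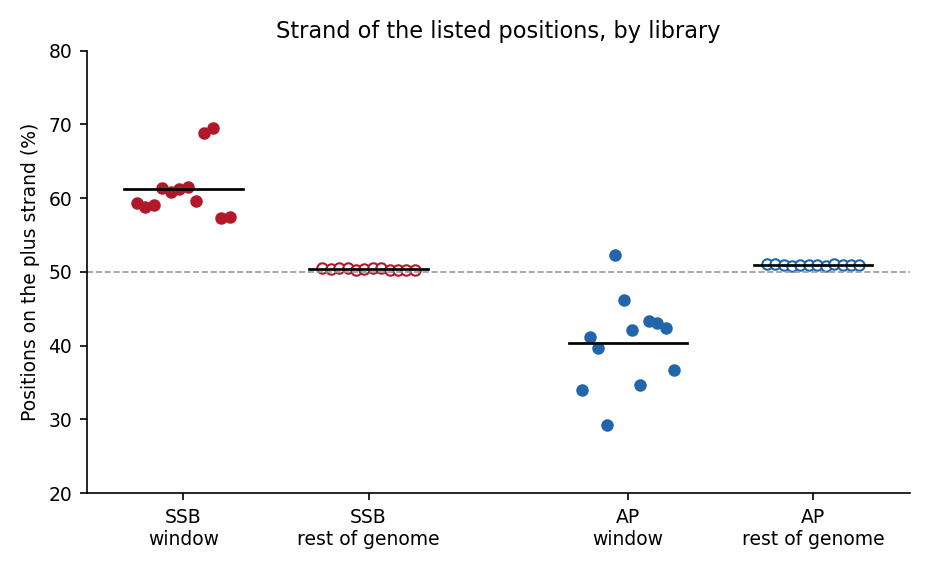
Percent of listed positions on the plus strand (vertical axis) for each of 12 SSB and 12 AP libraries, in the chromosome 17 window (filled points) and in the rest of the genome (open points), with lines for the means. SSB points of the window lie between 57.3% and 69.5%, AP points between 29.3% and 52.3%, and open points near 50.4% and 51.0%.

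Positions of the window carried a count above 1 more often than others. For SSBs the share was 6.58% ± 3.63 (SD, n = 12) in the window, from 1.75% in sperm replicate 1 to 13.2% in bone marrow replicate 1, and 0.491% ± 0.330 elsewhere. For AP sites it was 6.59% ± 2.50 in the window, from 2.31% in heart replicate 2 to 9.69% in bone marrow replicate 2, and 0.455% ± 0.161 elsewhere. The differences, 6.09 and 6.14 points, were above 0 in 12 of 12 libraries of each assay (two-sided exact sign-flip permutation tests, p = 0.000488, adjusted p = 0.00061). The window's positions are far denser than those elsewhere, which by itself makes repeats at a nucleotide more frequent. The tests therefore cannot tell repeated counts and density apart, and the part of density in these shares was not tested. The highest count at a nucleotide of the window was 4 in either assay, so counting lines or summing counts gave nearly the same levels.

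The same nucleotides recurred between libraries. In an SSB library 57.3% ± 4.0 (SD, n = 12) of the window's positions were listed, at the same nucleotide and strand, in at least 1 of the other 11 SSB libraries, against 1.05% ± 0.0937 in the rest of the genome. For AP sites it was 54.1% ± 4.20 against 2.88% ± 0.185. The differences of 56.2 and 51.2 points were above 0 in 12 of 12 libraries (exact p = 0.000488, adjusted p = 0.00061 for each). At equal depth they were 38.9 and 27.4 points, and with at least 2 other libraries required 29.3 and 29.5. A shared nucleotide counts for each library that lists it, so the 12 values are not independent. Lists this dense share nucleotides more often by density alone, so these tests cannot tell recurrence and density apart. The part that the density of positions has in the values was not tested.

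By this measure the densest windows did not follow their order of positions per 100 kb. The chromosome 11 window, with more positions in both assays, had 22.5% of its SSB and 46.8% of its AP positions in another library, where the chromosome 17 window had 56.7% and 53.8% over its pooled positions. Its share with a count above 1 was 2.74% for SSBs and 5.04% for AP sites, beside 8.07% and 7.29%. The Ugt1a window had 5.13% and 15.6% of its positions shared. The chromosome 17 window thus ranked highest in both shares among the densest windows named. Nearly all of its positions were packed into 3799 bp. How closely the positions of the other windows are packed was not measured, so windows of like local density are not compared here.

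The window's lists comprised 2529 different SSB nucleotides and 1804 AP nucleotides. Of these, 857 and 551 were listed in 2 or more libraries, 788 and 518 in 2 or more tissues, and 115 and 85 in 4 or more libraries. In the pair of stretches the SSB lists used 32.5% and the AP lists 22.8% of the 7598 nucleotides on both strands. The assays had 803 nucleotides in common, 31.8% of those of SSBs and 44.5% of those of AP sites.

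The most recurrent nucleotides lay before Rn18s-rs5. Position 39845540 on the plus strand was listed in 8 SSB libraries, both replicates of bone marrow, brain, heart and liver, and in no PBMC or sperm SSB library. Position 39844948, plus strand, followed with 7 SSB libraries of 5 tissues. For AP sites position 39843168 on the minus strand was listed in 8 libraries, both replicates of bone marrow, brain, PBMCs and sperm, with 14 counts in all, and in 0 SSB libraries. Position 39846308, minus strand, was listed in 7 AP libraries, and 39845085, minus strand, in 6 AP libraries of 6 tissues. SSB position 39845213 and AP position 39845214, adjacent on the plus strand, were each listed in 6 libraries of 5 tissues.

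Pairs of SSB libraries from the same tissue and from different tissues overlapped widely in the nucleotides they shared. As a share of the smaller list, the replicates had 21.9% of their window nucleotides in common in liver, 19.5% in bone marrow, 17.7% in heart and 15.8% in brain, but 5.50% in PBMCs and 4.96% in sperm, whose lists are the smallest. Pairs from different tissues ran from 2.54% to 21.0%, so that only liver lay above all of them. The median was 16.7% within tissues (6 pairs of libraries) and 13.5% between tissues (60 pairs), and 11.9% for both with AP sites. SSB and AP lists of the same sample shared a median of 6.60%, those of different samples 7.68%. In the rest of the genome all these medians were at most 0.367%, and pairs of libraries reuse the same lists, so no test was made.

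SSB and AP nucleotides of the window were shifted against each other by 1 nucleotide. Along the AP strand, 51.4% of the 1804 AP nucleotides had an SSB nucleotide of any library 1 nucleotide before them, 44.5% at the same nucleotide and 43.0% 2 nucleotides before. At offsets from 5 to 10 nucleotides to either side the share was 32.2% to 34.4%. The rest of the genome had its highest share at the same offset, 0.975% of 8690574 AP nucleotides, beside 0.567% at offset 0, 0.64% at offset 2, 0.385% at offset 3 and 0.292% to 0.336% at offsets from 5 to 10 to either side. On the opposite strand the highest shares were 40.0% at offset 2 in the window and 0.482% at offset 3 elsewhere. These shares are pooled over libraries and are given as a description.

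**Figure D5:**
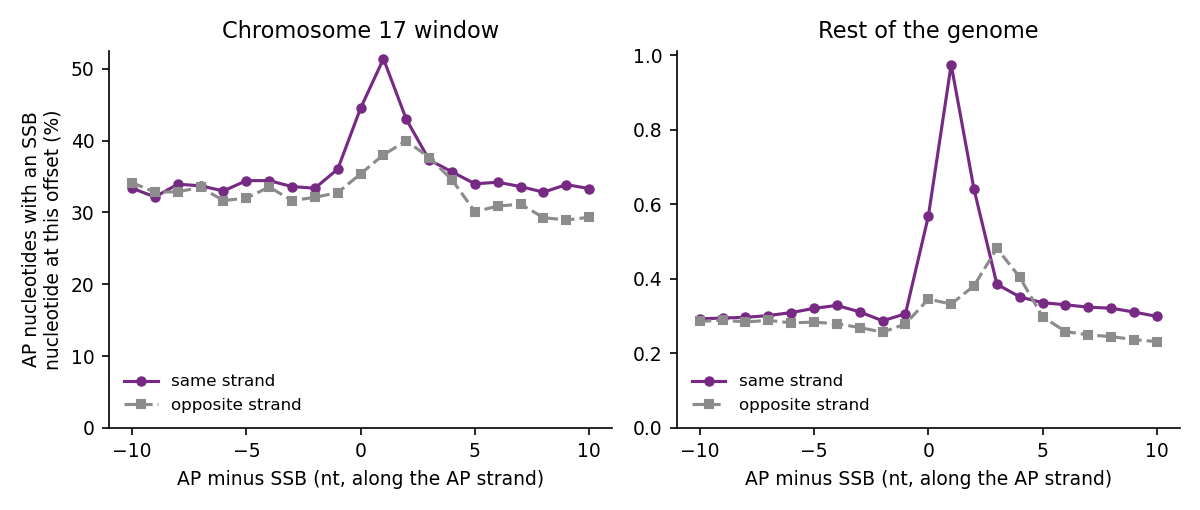
Percent of AP nucleotides (vertical axis) that have an SSB nucleotide at each offset from -10 to 10 nt along the AP strand (horizontal axis), in the chromosome 17 window (left) and in the rest of the genome (right, another scale), on the same strand and on the opposite one. Same-strand shares peak at offset 1, at 51.4% and 0.975%.

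At a coarser scale the assays had similar profiles. Over 40 steps of 100 bp in the stretches, the mean SSB and AP levels had a Pearson r of 0.604 and a Spearman rho of 0.605, across steps of the same libraries and therefore as a description. The plus and minus strands of an assay were less alike, with r of 0.298 for SSBs and 0.125 for AP sites.

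Genes for ribosomal and small structural RNAs, with Rn18s-rs5 and its 1 AP position included, had 4 SSB and 5 AP positions in all. Of 17 symbols searched and all symbols starting with n-R5s, 80 genes were found, 69 of them copies of the 5S rRNA gene. The 69 copies, 8261 bp in all, had 0 SSB and 0 AP positions, which for counting error allows up to 3 per assay. The other 5S gene Rn5s, Rn28s1 (annotated before the first listed position of chromosome 11), Rn4.5s, the 7SK gene Rn7sk, the 7S genes Rn7s1 and Rn7s2 and the Y RNA genes Rny1 and Rny3 were at 0 in both assays. Rmrp, the RNA of RNase MRP, had 3 SSB and 2 AP positions, and Rpph1, the RNA of RNase P, 1 and 2. None of the 80 genes had positions in enough libraries (20%) to enter a test. The genes other than Rn18s-rs5 are short, and their surroundings were not counted. As for Rn18s-rs5, it is not known whether reads from repeated copies could be listed. No comparison with the stretches beside Rn18s-rs5 is therefore drawn.

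For genes of RNA polymerase I and of rDNA transcription and processing the number called says little, since few genes were called at all. Of 35 found and tested, 0 were called in either direction between SSBs and AP sites (edgeR), beside 1.02% of all genes, and 2 had an unadjusted p under 0.05, as had 4779 of the 41210 genes tested. Their median log2 ratio was 0.03, with -0.08 over all genes. The smallest p-values were those of Nop58, a snoRNP protein of rRNA modification (log2 0.68 ± 0.30 SE, LPKM-SSB 0.385 ± 0.113 and LPKM-AP 0.225 ± 0.121, adjusted p = 0.330), Polr2e, a subunit shared by the RNA polymerases (0.76 ± 0.39, adjusted p = 0.430), and Ncl, the nucleolar protein nucleolin (0.57 ± 0.31, adjusted p = 0.473). Across tissues 0 of 35 were called for AP sites. The 35 genes held 2883 SSB and 4390 AP positions over all libraries, and the 3 named had at most 10 in a library, as Ncl with 0 to 8 SSB positions.

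The genes whose SSB level in PPM followed AY036118 most closely over the 12 SSB libraries were Piezo1, a mechanosensitive ion channel, and Gna12, a G protein subunit, both with a Spearman correlation of 0.937 among 3229 genes compared. They were followed by Rnf213 (0.874), Zmiz1 (0.867) and Kcnt1 (0.853). Piezo1 had 98.9 PPM of SSBs in bone marrow and 71.6 in the other tissues, Gna12 73.1 and 46.7. Over the 12 AP libraries the correlations with AY036118 were 0.378 and 0.566. All values of a library share its depth, and the genes were picked for this likeness.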

How the data were processed

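SSBs and AP sites had been mapped in the DNA of 12 samples (6 tissues, 2 animals each), giving 24 lists of positions. For each library the authors deposited a list of nucleotides, each with its strand and a raw count that had not been normalized; replicates were not pooled. The submitters' processing notes name mm10 and GRCm38 and, for the RNA data not analysed here, RSEM 1.2.28; the aligner, the filters and the treatment of reads with several matches are not given in the sources used here. Genes were taken from RefSeq (GRCm38.p6), which gives spans but no exons, so whole genes were counted on either strand and overlapping genes each received a position. Each line counted once. Library depth is given with the results; Poisson 95% intervals and limits of 3 positions cover counting error only, since the lists hold no molecular identifiers.

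AY036118, the window and the gene lists were chosen with earlier results of these data known. The text names AY036118, the other gene and the flanks of the window, 1 kb steps with at least 5% of its positions, up to 5 nucleotides per assay listed in the most libraries, the 5 densest windows per assay, the 5 genes most like AY036118 (mean of at least 20 positions), and the 3 genes of smallest p of each list. Positions per gene or window, nonzero in at least 20% of libraries, were tested with edgeR 4.0.16 (TMM, quasi-likelihood F test, Benjamini-Hochberg, threshold 0.05) with tissue as covariate. Single values were tested with exact sign-flip tests, 10 in all, a pseudocount of 0.5 positions entering the flank ratios. The SSB flank ratio counts among the 10 for the adjustment, but its p is not used. Labels give SSB and AP libraries as made from the same tissue sample, which pairs them, without saying whether 1 DNA preparation served both; deviations of such pairs from their group means had correlations of -0.00488 to 0.0226 over 21047 windows. That the 2 animals of a tissue are separate animals rests on the labels. Whether equal replicate numbers in different tissues mark the same animal is not stated, so the 12 samples may come from fewer animals. The p-values measure the spread between these samples and treat them as independent. Simulated data were drawn with the same fixed spread for all genes and no tissue differences but those put in. On them edgeR recovered 100% of 200 genes raised 4-fold at a mean of 20 or more positions. False calls were 6.98% between assays (40164 genes) and 1.96% across tissues (40172). Recovery of smaller changes or of sparser genes was not simulated. Alternatives were DESeq2 1.42.0, DESeq2 size factors, no TMM, other filters, summed counts, thinning to 225011 positions, leaving out samples, a replicate block and 10 kb windows. Software was R 4.3.3 and Python 3.11.15 with scipy 1.17.1, pandas 2.3.3, numpy 2.4.6 and, for figures, matplotlib 3.10.9.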

Additional observations from a re-analysis of the deposited data

How the results depend on the processing

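AY036118 and the window stayed higher for SSBs, past the threshold, under every alternative listed (log2 ratios 0.96 to 1.23 and 0.93 to 1.25). The strand, count, recurrence and AP flank results kept their direction and their side of the threshold. The SSB flank ratio, given without a test, kept its direction. The number of genes called between the assays, 419, was 221 with DESeq2 size factors, 217 without TMM, 156 with DESeq2, 21 at equal depth, 186 without bone marrow and 253 to 403 with a sample left out. Its split moved with scaling, from 93 higher and 326 lower to 130 and 91 with size factors and 143 and 74 without TMM. The number of windows, 543, was 199 with DESeq2, 58 at equal depth, 216 without bone marrow, 44 at 10 kb and 271 to 606 with a sample left out. The 0 windows called across tissues for AP sites became 1 without TMM, 2 at equal depth and 0 to 1 with a library left out, and the 0 genes 0 to 2. The share of AY036118 in the window, without a difference past the threshold, changed sign at equal depth (0.436 points), with summed counts (0.00586) and between left-out samples (-0.60 to 0.613). With the tissue sample as a replicate block 307 genes and 470 windows were called, with log2 ratios of 1.06 for AY036118 and 1.16 for the window, so this pairing changed no call of either between the assays. Across tissues, with the replicate number as the block, the adjusted p-values were 1.0 and 0.674. Some settings leave fewer libraries or positions, and the cause of these changes was not tested. Low depth per library limits AY036118 to 13 to 102 SSB positions.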
